A study of Mus musculus with 6 samples.

Results

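The 7 genes described here encode the receptors through which cells can respond to the GDNF family of growth factors. They are the receptor tyrosine kinase gene Ret, the co-receptor genes Gfra1, Gfra2, Gfra3 and Gfra4, and Ncam1 and Sdc3, whose products can also bind GDNF family ligands. They were chosen by name, and all 7 were found once each among the 41388 Ensembl gene identifiers of the files. All 7 also passed the low-count filter of the tests, which kept 14958 genes.

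Ret does not bind its ligands alone. A ligand first binds a GFRa protein, which is held on the membrane by a lipid anchor, and the complex then brings Ret molecules together and switches on their kinase. Each co-receptor has a preferred ligand: GDNF for GFRa1, neurturin for GFRa2, artemin for GFRa3 and persephin for GFRa4. NCAM, the neural cell adhesion molecule encoded by Ncam1, can transmit GDNF signals together with GFRa1 and without Ret, and syndecan-3, encoded by Sdc3, binds GDNF, neurturin and artemin through its heparan sulfate chains. In dorsal root ganglia, Ret marks non-peptidergic nociceptors, C-fibre low-threshold mechanoreceptors (C-LTMRs) and some myelinated mechanoreceptors, while Gfra3 is best known from peptidergic nociceptors.

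RNA was sequenced from EGFP-positive cells sorted from dorsal root ganglia of spinal levels T11 to S1 of C57BL/6 mice aged 18.5 dpc (embryonic days after mating). The 6 libraries comprised 3 from females (A, B and C) and 3 from males (A, C and D), each made from different embryos. Every embryo carried the reporter, given as a Ret-EGFP transgene (Tg(Ret-EGFP)SJ) in the genotype label and as EGFP placed in the Ret locus of heterozygotes in the series description. How many unaltered copies of Ret these embryos had was therefore not settled here. Female A and male A each pooled 60 ganglia of 3 embryos, males C and D pooled 40 ganglia of 2 embryos each, and 20 ganglia of 1 embryo went into each of female B and female C. Females B and C also belong to later records written in another form, called record set 2 here, so record set and embryos per pool cannot be told apart. No EGFP-negative cells were analysed here.

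Depth was 17861500 to 29330101 counts a library, and the limit set by 0 counts, taken as 3 counts and covering counting error only, lay between 0.102 and 0.168 CPM (counts scaled to a common library total). The pan-sensory neuron markers, a list of 12 genes that includes Isl1, Prph and Tubb3, were present in every library, at 16044 to 22379 CPM in the females and 15134 to 16613 CPM in the males when summed. Male A and male C stand apart. Male A had the highest level of 31.1% of all genes tested and the lowest level of 28.4%, and its summed satellite glia and Schwann cell markers stood at 4452 CPM, against 1800 to 2226 CPM in the other 5 libraries. Of these 14 glial markers, 10 were highest in male A, among them Sox10, and Fabp7 and S100b were lowest there. Fibroblast and meningeal markers reached 2873 CPM together in male A and 574 to 675 CPM in the rest. Of the markers tested, 7 of 8 endothelial and pericyte genes and 3 of 3 immune genes were also highest in male A, at summed levels of up to 104 and 13.3 CPM. The library labelled male C held Xist, a transcript of the inactive X chromosome, at 58.9 CPM, against 111 to 197 CPM in females and 0.418 and 0.575 CPM in male A and male D; it also held the Y-linked Ddx3y at 57.1 CPM. Whether the pool of male C held cells of both sexes was not tested. It is called male C below, as labelled, and the comparison of the sexes is also given without male A and without male C.

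Gfra3, the artemin co-receptor gene (ENSMUSG00000024366, chromosome 18), had the highest level of the 7. Levels below are CPM scaled with TMM factors (a correction for library composition) and divided by the summed exon length in kilobases, so that genes of different length can be set side by side. Gfra3 stood at 200.2, 189.5 and 225.8 CPM per kilobase in females A, B and C, against 301.1, 220.8 and 189.4 CPM per kilobase in males A, C and D. Male A was the highest and the other 5 libraries lay close together. Over the 6 libraries Gfra3 averaged 221 ± 42.1 CPM per kilobase (SD, n = 6), above 98.4% of the genes tested, and without male A the mean was 205 ± 17.3 CPM per kilobase (SD, n = 5).

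Ncam1 (ENSMUSG00000039542, GRCm38 chromosome 9, 49504361 to 49798922, minus strand) was next in the order. It stood at 84.5, 68.4 and 82.4 CPM per kilobase in females A, B and C, against 94.7, 91.3 and 71.9 CPM per kilobase in males A, C and D. Male A was again the highest, and the ranges of the sexes overlapped. The gene model behind the deposited counts spans 3899 exonic bases, 45.0% of the 8664 bases that the GENCODE M21 annotation gives. Reads beyond the deposited model are not in the counts.

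Ret itself (ENSMUSG00000030110, chromosome 6, 118151748 to 118197744, minus strand, 19 exon blocks) was of intermediate level. It had 28.4, 26.0 and 20.7 CPM per kilobase in females A, B and C, against 20.1, 24.4 and 28.7 CPM per kilobase in males A, C and D. The highest and the lowest value were both from males, and the highest was 1.43 times the lowest. The mean of 24.7 ± 3.70 CPM per kilobase (SD, n = 6) exceeded that of 84.2% of the genes tested.

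Gfra2, the neurturin co-receptor gene (ENSMUSG00000022103, chromosome 14, 70890130 to 70979838, plus strand), was close to Ret. Its values were 24.5, 22.6 and 23.1 CPM per kilobase in females A, B and C, against 27.1, 22.2 and 19.0 CPM per kilobase in males A, C and D. The females were nearly alike and lay inside the range of the males. Gfra2 had the smallest spread of the 7 genes, with a coefficient of variation of 11.6%, against a median of 25.3% over all genes tested. Without male A its coefficient was 9.13%, and that of Gfra3 was smaller at 8.41%.

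Sdc3, which encodes the heparan sulfate proteoglycan syndecan-3 (ENSMUSG00000025743, chromosome 4, 130792537 to 130826319, plus strand), was lower. It stood at 10.4, 6.81 and 8.29 CPM per kilobase in females A, B and C, against 13.2, 9.07 and 8.16 CPM per kilobase in males A, C and D. Male A was 1.54 times the mean of the other 5 libraries, the largest such excess among the 7 genes. Gfra1, the GDNF co-receptor gene (ENSMUSG00000025089, chromosome 19, 58235604 to 58455909, minus strand), had 6.63, 8.86 and 5.13 CPM per kilobase in females A, B and C, against 4.44, 6.29 and 6.24 CPM per kilobase in males A, C and D. For Gfra1 it was female B that stood highest and male A that stood lowest, a difference of 2.00-fold.

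Gfra4, the persephin co-receptor gene (ENSMUSG00000027316, chromosome 2, 131039632 to 131043088, minus strand), was the lowest member, yet it was above the detection limit everywhere. Its raw counts were 116, 86 and 74 in females A, B and C, against 107, 116 and 123 in males A, C and D. All 6 counts are far above the 3 counts taken as the limit of a count of 0. These correspond to 2.45, 2.20 and 1.71 CPM per kilobase in the females and to 2.58, 1.70 and 2.72 CPM per kilobase in the males. At these depths counting error alone gives a coefficient of variation of about 9.99%, beside an observed 19.8%. For the other 6 genes the counting part was at most 3.80%.

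Promoter windows outside the gene body were at hand in RefSeq (GRCm38.p6) for Gfra4 and Sdc3, and these are shown. Another Gfra4 window overlapped the gene body and is not shown. Gfra4 is the lowest of the 7 genes, and Sdc3 was 4.28 times higher per length. Whether CpG content goes with level was not tested. Each is the 250 bases before the annotated start, 5′ to 3′ on the gene's strand, with CpG dinucleotides in capitals. The Gfra4 window is chr2:131043089-131043338 on the minus strand and the Sdc3 window is chr4:130792287-130792536 on the plus strand.
Gfra4: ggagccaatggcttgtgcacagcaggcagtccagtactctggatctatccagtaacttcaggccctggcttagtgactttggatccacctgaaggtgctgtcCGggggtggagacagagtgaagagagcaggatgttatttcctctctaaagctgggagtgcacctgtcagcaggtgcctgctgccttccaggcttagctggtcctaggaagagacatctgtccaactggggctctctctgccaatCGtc
Sdc3: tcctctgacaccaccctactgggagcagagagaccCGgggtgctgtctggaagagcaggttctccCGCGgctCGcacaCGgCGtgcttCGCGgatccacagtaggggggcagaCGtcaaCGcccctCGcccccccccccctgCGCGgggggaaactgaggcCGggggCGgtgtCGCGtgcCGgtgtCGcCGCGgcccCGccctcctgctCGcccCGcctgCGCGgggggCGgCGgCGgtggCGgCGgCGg
The letters CG occur 2 times in the Gfra4 window, which has 55.2% G or C, and 32 times in the Sdc3 window, which has 76.4%. The motif reads the same on both strands. Of 27025 promoter windows of the same length, 29.6% hold at most as many as Gfra4 and 4.39% at least as many as Sdc3. Promoter windows of the other members, among them 1 of Gfra1, are not used here.

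**Figure D1:**
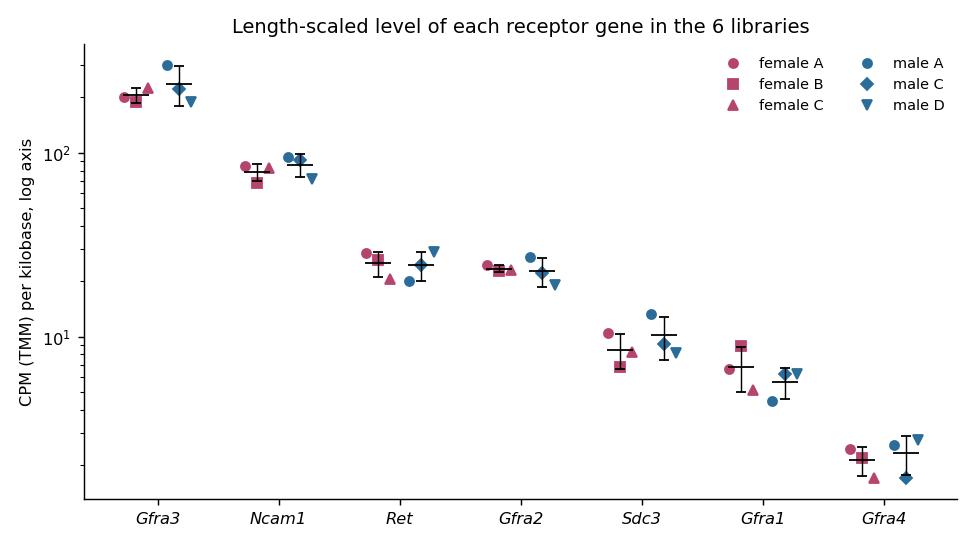
Length-scaled level of each receptor gene (log axis, CPM with TMM factors per kilobase of exon) in females A, B and C (red, left of each gene) and males A, C and D (blue, right); black bars are the mean and SD of 3 libraries. Gfra3 lies at 189.4 to 301.1 and Gfra4 at 1.70 to 2.72, and the sexes overlap for every gene shown. Of all genes tested 8.06% had no overlap, so this does not set the receptor genes apart.

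Neighbours in this order were compared with an exact two-sided sign-flip permutation test over the 6 libraries, adjusted over the 6 neighbouring pairs. In this test p cannot go below 0.0312. The order was taken from the means of the same 6 libraries, so the p-values are not independent evidence for it. They describe how steadily each difference held between libraries. A bias of a gene that all libraries share, such as from its length, is not measured. Gfra3 exceeded Ncam1 by a log2 difference of 1.42 ± 0.15, Ncam1 exceeded Ret by 1.73 ± 0.36, Gfra2 exceeded Sdc3 by 1.32 ± 0.24 and Gfra1 exceeded Gfra4 by 1.44 ± 0.44 (SD, n = 6). Each of these held in 6 of 6 libraries, with adjusted p = 0.0469 in the exact permutation test. Ret and Gfra2 were not separated: their log2 difference was 0.09 ± 0.35, ran from -0.43 to 0.59 and was positive in 4 of 6 libraries (exact permutation test, adjusted p = 0.562). Sdc3 and Gfra1 were not separated beyond the threshold either, with a log2 difference of 0.57 ± 0.62, positive in 5 of 6 libraries (exact permutation test, adjusted p = 0.075).

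Some exonic bases of 3 genes are shared with antisense genes: 7.60% of the counted Gfra1 model with Gm16277, 10.6% of Ncam1 with Gm11149 and 6.93% of Sdc3 with Gm26716. The strand setting of the counting is not known here, so reads from these stretches may belong to either gene. Sdc3 also shares 0.801% with the antisense gene Gm12970. Gfra4 shares 80 bases, 3.70% of its model, with the microRNA gene Mir6973b on the same strand, which no strand setting could separate. Ret, Gfra2 and Gfra3 share no exonic base with another gene.

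The place of Ret relative to Gfra2 depends on the length used. The deposited model of Ret has 7341 exonic bases, of which 92.1% lie in GENCODE M21 exons, while the longest coding transcript of M21 has 5456. With transcript lengths in place of the deposited ones Ret exceeded Gfra2 by 0.52 on the log2 scale (exact permutation test, adjusted p = 0.0375). With the deposited lengths and without male D the log2 difference was -0.01. The level of Ncam1 is also sensitive to length, although its place above Ret held. Its longest coding transcript (6564 bases) is longer than the counted model. With it the log2 difference of Ncam1 over Ret was 0.56 in place of 1.73 (exact permutation test, adjusted p = 0.0375). Reads beyond the counted model are missing from this value, so the longer length lowers Ncam1 by construction.

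To show how much of each co-receptor transcript accompanied Ret, ratios of counts per kilobase were taken within each library, which removes library scaling. Gfra3 was the co-receptor most in excess. There were 7.05, 7.29 and 10.9 Gfra3 per Ret in females A, B and C, against 15.0, 9.04 and 6.61 in males A, C and D. Male A had the largest excess and male D the smallest; the mean was 9.32 ± 3.20 over 6 libraries and 8.18 ± 1.79 without male A. These are ratios of RNA over a mixed population, so they do not say which cells held both transcripts.

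Ret and Gfra2 were near parity. The ratio of Ret to Gfra2 was 1.16, 1.15 and 0.897 in females A, B and C, against 0.743, 1.10 and 1.51 in males A, C and D, a mean of 1.09 ± 0.262. The males spanned both ends and the females lay between them. Ret exceeded Gfra1 in every library. That ratio was 4.29, 2.93 and 4.03 in females A, B and C, against 4.53, 3.88 and 4.59 in males A, C and D, and its coefficient of variation of 15.1% was the smallest of the 6 ratios. Without male A it was 15.9%, and the ratio of Ret to Gfra4 varied less, at 11.8%. Only female B, the library with the highest Gfra1, fell clearly below the others.

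Against Gfra4, Ret stood at 11.6, 11.8 and 12.1 in females A, B and C, against 7.78, 14.4 and 10.5 in males A, C and D. The females lay close together, and the males held both the lowest and the highest ratio. Counting error in Gfra4 alone gives a coefficient of variation of about 9.99%, more than the spread of the female ratios. No contrast in consistency between the sexes can therefore be read from them. The mean was 11.4 ± 2.17 over 6 libraries and 12.1 ± 1.42 without male A. Against the alternative receptors, Ret averaged 0.308 ± 0.0751 of Ncam1 and 2.80 ± 0.810 times Sdc3 (SD, n = 6). The ratio to Sdc3 was 2.73, 3.82 and 2.50 in females A, B and C, against 1.52, 2.69 and 3.51 in males A, C and D, with male A lowest, and its mean without male A was 3.05 ± 0.578. Against the summed co-receptors, Ret made up 0.101 ± 0.0273 of Gfra1 to Gfra4 together. Leaving out male A gave 0.110 ± 0.0204.

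**Figure D2:**
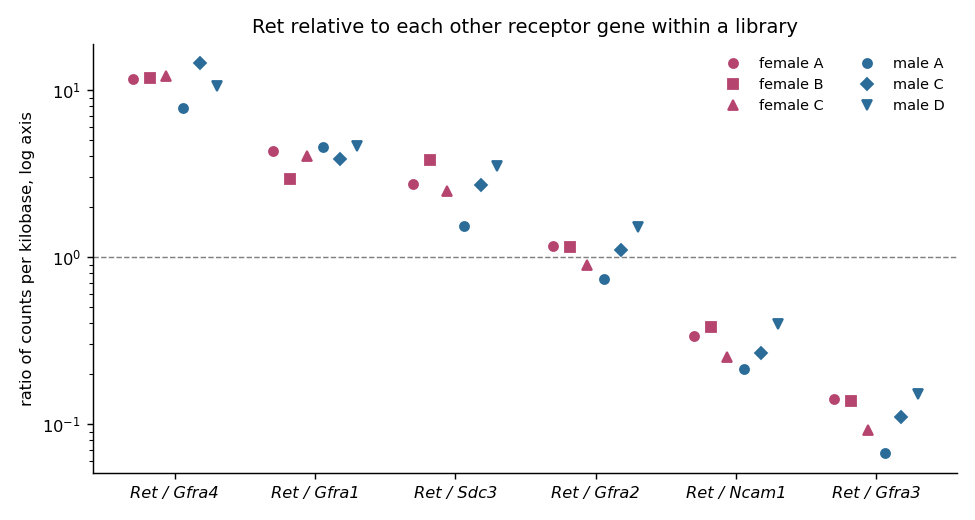
Ratio of Ret to each other receptor gene in counts per kilobase (log axis) in females A, B and C (red, left) and males A, C and D (blue, right), with a dashed line at 1. Ret stays above Gfra4, Gfra1 and Sdc3, crosses 1 for Gfra2 and stays below Ncam1 and Gfra3, and male A is the lowest point in 5 of the 6 ratios.

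No difference between females and males was found for the 6 ratios in an exact two-sided permutation test of the log2 ratio, which with 3 against 3 libraries cannot go below p = 0.1. The unadjusted p ranged from 0.3 for Gfra1 to 1 for Gfra2, and the adjusted p from 0.96 to 1. The log2 differences, female minus male, lay between -0.22 for Gfra1 and 0.28 for Sdc3.

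Gfra3 was the main part of the co-receptor pool in all 6 libraries. Gfra3 took 85.7%, 84.9% and 88.3% of the summed Gfra1 to Gfra4 counts per kilobase in females A, B and C, against 89.8%, 88.0% and 87.2% in males A, C and D. Gfra2 was next at 10.5%, 10.1% and 9.02% in females A, B and C, against 8.07%, 8.86% and 8.73% in males A, C and D. Each female lay above each male for this share, with female C and male C close together, but the exact permutation test gave its smallest possible p of 0.1 (adjusted p = 0.4 over the 4 shares). The small parts varied more. Gfra1 contributed 2.83%, 3.97% and 2.00% in females A, B and C, against 1.32%, 2.50% and 2.87% in males A, C and D. Gfra4 contributed 1.05%, 0.984% and 0.669% in females A, B and C, against 0.770%, 0.675% and 1.25% in males A, C and D. Both ranges overlapped between the sexes.

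**Figure D3:**
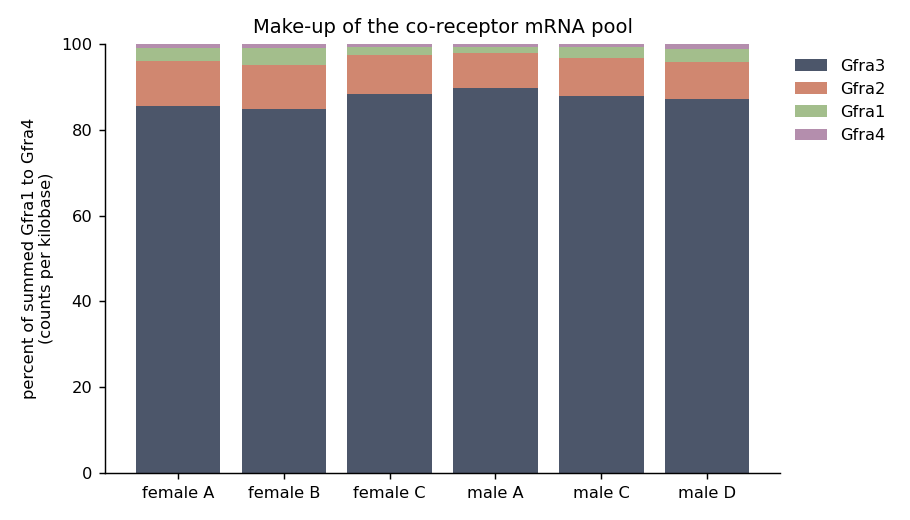
Share of each GFRa co-receptor gene in the summed counts per kilobase of Gfra1 to Gfra4, as stacked percent, in females A, B and C and males A, C and D. Gfra3 fills 84.9% to 89.8% of every bar and Gfra2 8.07% to 10.5%.

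The genes did not all vary together across libraries. Gfra2, Gfra3, Ncam1 and Sdc3 each had their highest level in male A, and Ret and Gfra1 their lowest; the share of all genes tested with their highest level there was 31.1%. The ratios among Gfra2, Gfra3 and Ncam1 were steady, with coefficients of variation of 11.6% for Gfra3 over Gfra2, 10.9% for Gfra3 over Ncam1 and 10.1% for Ncam1 over Gfra2. Ratios of Ret to the same 3 genes varied more, at 24.0% for Gfra2, 28.2% for Gfra3 and 24.4% for Ncam1. Without male A the ratios to Ret varied by 19.1%, 19.5% and 20.1%, and the other 3 by 9.68%, 7.13% and 11.2%. These genes were singled out after their values were seen, and no background over all gene pairs was computed. Over all 6 libraries the ratio of Sdc3 varied by 13.8% over Gfra3, 14.4% over Ncam1 and 16.0% over Gfra2. In male A the glial and fibroblast marker sums were the highest of the 6 libraries, as given above, and the sums of all 5 lists of neuron markers were the lowest. They stood in male A at 15134 CPM for pan-sensory, 2208 CPM for peptidergic, 1086 CPM for non-peptidergic, 540 CPM for C-LTMR and 277 CPM for myelinated mechanoreceptor and proprioceptor markers. The part of other cell types in these levels was not tested, and in sorted bulk samples fewer cells of a type and less RNA per cell cannot be told apart.

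**Figure D4:**
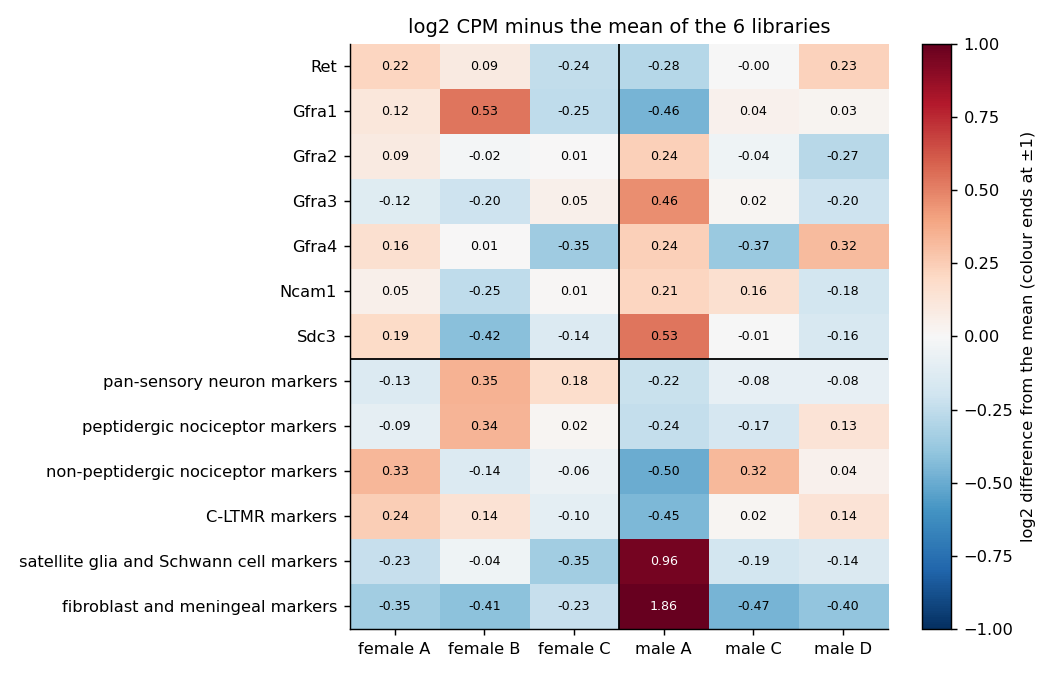
Log2 CPM of each receptor gene, and of summed marker lists, minus the mean of the 6 libraries, in females A, B and C and males A, C and D (red higher, blue lower, colour saturating at ±1). In male A Gfra3 is at 0.46, Sdc3 at 0.53, Gfra2 and Gfra4 at 0.24 and Ncam1 at 0.21, while Ret is at -0.28 and Gfra1 at -0.46. Glial markers are at 0.96 and fibroblast and meningeal markers at 1.86 in male A.

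As a description of which genes had the most similar profile, the root mean square difference of mean-centred log2 CPM over the 6 libraries was computed among 10474 genes with a mean of at least 5 CPM. The nearest to Ret were Apba1, which encodes a synaptic adaptor protein (0.044), BB218582 (0.045) and Arf3, a small GTPase gene (0.047). The median over all these genes was 0.339, and the nearest receptor gene, Gfra1, was at 0.215, in 1776th place. For Gfra3 the nearest were Sh3bp5l (0.018), ENSMUSG00000043858 (0.039) and the splicing factor gene Sf3b2 (0.042), with Ncam1 at 0.141 in 661st place. For Sdc3 they were the metalloprotease gene Adam17 (0.024), Sf1 (0.046) and Mtmr14 (0.050). Rcbtb2 (0.020), Cyb561 (0.046) and Camkv (0.046) were nearest to Ncam1, Rpl10 (0.050), Samhd1 (0.050) and Cln8 (0.052) to Gfra2, and Hsd17b7 (0.083), Magee2 (0.087) and Scrn3 (0.113) to Gfra1. For Gfra2, Ncam1 was in 353rd place and Gfra3 in 703rd place. With 6 libraries and this many genes, close matches are numerous.

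To determine whether the receptors differed by sex, the 3 female and 3 male libraries were set against each other with the edgeR quasi-likelihood F-test over all 14958 genes, with Benjamini-Hochberg adjustment. None of the 7 genes was called, and none had an unadjusted p under 0.05 in edgeR, DESeq2 or limma voom. Over all genes 4 were called, which is 0.0267%, namely the Y-linked Ddx3y, Eif2s3y, Kdm5d and Uty. The libraries of the sexes overlapped in CPM for all 7. Of all genes tested 8.06% had no overlap, a share so small that overlap in all 7 does not set them apart.

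Ret averaged 184 ± 29.0 CPM in the females and 179 ± 31.4 CPM in the males (SD, n = 3 each), a log2 change of 0.04 with a 95% interval of -0.45 to 0.52 (edgeR adjusted p = 0.996). This interval spans 0.733-fold to 1.44-fold. Gfra2 was at 81.0 ± 3.31 CPM in the females and 78.8 ± 14.1 CPM in the males, a log2 change of 0.04 (interval -0.41 to 0.49). The signs for Ret and Gfra2 turn negative when library totals replace TMM factors, which moves the median log2 change of all genes from -0.0036 to -0.117.

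Gfra1 had the largest positive log2 change, 0.28 with an interval of -0.30 to 0.86, at 37.6 ± 10.3 CPM in the females and 31.0 ± 5.78 CPM in the males. It was 0.057 without female B and 0.13 without male A, and in both cases Gfra2 was larger, at 0.065 and 0.18. Gfra3 stood at 409 ± 37.2 CPM in the females and 472 ± 115 CPM in the males (log2 change -0.21, interval -0.70 to 0.28). Sdc3 stood at 50.9 ± 10.8 CPM in the females and 60.7 ± 16.0 CPM in the males (log2 change -0.25, interval -0.83 to 0.32). Ncam1 stood at 78.4 ± 8.73 CPM per kilobase in the females and 86.0 ± 12.3 CPM per kilobase in the males, a log2 change of -0.13 (interval -0.57 to 0.31). Gfra4 stood at 4.58 ± 0.809 CPM in the females and 5.05 ± 1.21 CPM in the males, a log2 change of -0.14 (interval -0.85 to 0.58). Without male A alone the log2 change was -0.00078 for Gfra3, -0.021 for Sdc3, -0.058 for Ncam1 and -0.055 for Gfra4, so this 1 library carried nearly all of the change in Gfra3 and Sdc3. Without male C alone it was -0.32 for Gfra4, -0.33 for Sdc3, -0.26 for Gfra3 and -0.086 for Ncam1. For Ret it was -0.086 without male A and 0.038 without male C, and for Gfra2 it was 0.024 and for Gfra1 0.36 without male C. Ncam1 was at -0.041 without female B, and Gfra4 at -0.002 without female C and -0.0078 without male D. Without both male A and male C, the log2 changes of Gfra3, Ncam1 and Sdc3 were positive, at 0.11, 0.12 and 0.05. The median over the 7 genes was -0.13, beside -0.0036 over all genes tested.

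**Figure D5:**
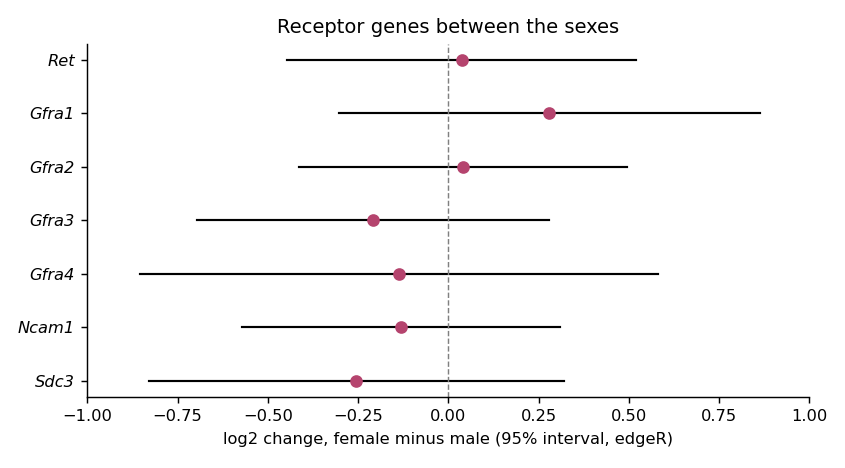
Log2 change, female minus male, of each receptor gene (point) with its 95% interval (line) from the edgeR fit to 3 female and 3 male libraries. Every interval includes 0, and the widest, for Gfra4, runs from -0.85 to 0.58.

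Record set 2, that is females B and C, was set against record set 1 with sex as a term in the same test. All males belong to record set 1, so with this term the log2 change rests on females B and C against female A alone. In females only it was -0.288 for Ret and -0.464 for Sdc3, close to the values below. No receptor gene was called, and no gene at all (0.0% of 14958, with 483 at an unadjusted p under 0.05; limma voom also called 0, with 471). Sdc3 had a log2 change of -0.46 with an interval of -1.31 to 0.38, which was -0.32 without female B and -0.61 without female C. It stood at 40.8 and 49.6 CPM in females B and C, against 62.2 CPM in female A and 48.9 to 79.0 CPM in males. Ret had a log2 change of -0.28 (interval -1.02 to 0.45), which was -0.46 without female B and -0.13 without female C. Its values of 190.7 and 151.8 CPM in females B and C lay within the 147.5 to 210.3 CPM of the other 4 libraries. The log2 changes of the other 5 genes lay between -0.32 for Gfra4 and 0.08 for Gfra1, and every interval included 0. That of Gfra4 was -0.51 without female B and -0.15 without female C, and that of Gfra1 was -0.37 without female B and 0.42 without female C.

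The ligands were at or near the detection limit. Summed over all 6 libraries there were 2 counts of Gdnf, 3 of Artn, 10 of Nrtn and 22 of Pspn, and none of the 4 genes passed the filter. Their summed level was 0.137 to 0.300 CPM in the females and 0.0958 to 0.522 CPM in the males. Gfral, which encodes the receptor of the stress hormone GDF15 and is a distant relative of the co-receptors, had 0 counts in every library, and Gdf15 had 10 counts in all. Gas1, a structurally related gene that acts in hedgehog signalling, was present at 1.23 CPM on average.

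Genes known to bind, sort or degrade Ret complexes were mostly expressed, and none of the 8 tested among 9 was called between the sexes in either direction. Nedd4, a ubiquitin ligase gene, had the highest level at 123 ± 19.9 CPM per kilobase (SD, n = 6). Ptprf, which encodes the receptor phosphatase LAR, followed at 25.3 ± 2.12 CPM per kilobase, about the level of Ret, and Cdh2, which encodes N-cadherin, stood at 10.2 ± 2.90 CPM per kilobase. Sorl1, which encodes the sorting receptor SorLA of GDNF and GFRa1, averaged 6.32 CPM per kilobase, close to Gfra1. The ubiquitin ligase gene Cbl and the adaptor gene Cd2ap were lowest in male A, at 7.73 CPM for Cbl and 6.53 CPM for Cd2ap, against 14.4 to 24.5 CPM and 12.3 to 23.1 CPM in the other 5 libraries. Lrig1, whose product restrains Ret activation, was highest in male A at 6.43 CPM, against 1.65 to 2.92 CPM elsewhere.

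Of the 5 genes that act with NCAM, all were tested and 0 were called between the sexes. Their median log2 change was 0.26, beside -0.0036 over all genes tested. Of these 5 genes, 3 had their lowest level in male A, as did 28.4% of all genes tested. A median without male A was not computed. The Src family kinase gene Fyn stood at 11.8 ± 2.42 CPM per kilobase, the focal adhesion kinase gene Ptk2 at 8.24 ± 1.12 and the related adhesion gene Ncam2 at 6.22 ± 1.91 (SD, n = 6). Ncam1, at 82.2 ± 10.4 on the same scale, was the highest of the NCAM-related genes measured. The polysialyltransferase genes St8sia2 and St8sia4, whose enzymes attach polysialic acid to NCAM, averaged 1.88 and 0.726 CPM per kilobase. St8sia4 was lowest in male A at 3.92 CPM, against 10.8 to 23.5 CPM in the other 5 libraries.

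Among the other 9 syndecan and glypican genes, which carry heparan sulfate as Sdc3 does, all were tested and 0 were called, with a median log2 change of -0.09. Gpc3 stood at 30.5 ± 7.82 CPM per kilobase and Gpc1 at 19.2 ± 4.39 (SD, n = 6), and Sdc4 ranged from 9.39 to 55.5 CPM per kilobase. Sdc4 was highest in male A, with 141.5 CPM against 23.9 to 54.0 CPM in the other 5 libraries. Gpc4 was likewise highest there, at 23.6 CPM against 2.49 to 7.53 CPM. Of 19 heparan sulfate synthesis genes, 17 were tested and 0 were called, with a median log2 change of -0.07. The highest were the chain initiation gene Extl3 at 16.0 ± 2.74 CPM per kilobase, the epimerase gene Glce at 13.7 ± 4.90 and the linker enzyme gene B3gat3 at 13.6 ± 1.76.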

How the data were processed

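Per the labels' protocols, sorted viable cells (7-AAD excluded dead cells) were lysed in TRIzol-LS and 10 ng of RNA went into SMARTer ultra low input library preparation, which has no molecular identifiers. Per the submitters' processing notes, Subread, featureCounts 1.4.5 and GRCm38.p2 were used; settings for strand and multimapping are not known here. The authors deposited raw counts, CPM and RPKM per gene. The deposited CPM and RPKM equal values recomputed from the counts and lengths (tolerance 1e-06), so only counts and lengths were used further.

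Sexes and record sets were compared with edgeR 4.0.16 (quasi-likelihood F-test, TMM, filterByExpr, Benjamini-Hochberg, threshold 0.05), tested on simulated counts, in R 4.3.3. DESeq2 1.42.0 and limma 3.58.1 (voom) were alternatives. Order tests used log2(level + 0.1) in Python 3.11.15 with scipy 1.17.1. Exon models were read from GENCODE M21 and promoters from RefSeq. The libraries come from different embryos; p-values measure the spread between these pools. The members and lists were chosen with earlier results of these data known. Named were the 7 members, the 3 highest genes per length and other genes of each pathway list, and the 3 nearest profiles per member with a mean of at least 5 CPM, which left out Gfra4 (4.82 CPM). Genes singled out for male A were chosen after their values were seen. Intervals and limits cover counting error only where they rest on counts of 1 library.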

Additional observations from a re-analysis of the deposited data

How the results depend on the processing

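None of the 7 genes was called between the sexes or between record sets under any alternative run, with adjusted p of at least 0.567 for sex and 0.357 for record set. Depth limits only Gfra4, and with 3 libraries a sex the intervals reach 1.82-fold for Gfra1 and 0.553-fold for Gfra4. The number of genes called between the sexes was 14 without the low-count filter, 13 by DESeq2, 1 by limma voom, 0 with record set as a term, 0 in record set 1 only and 0 to 5 when single libraries were left out (0 without female A). Between record sets 136 genes were called in females only and 3 without a sex term; the fit without female A could not be made. The causes were not tested.

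The letters A and C occur in both sexes, and a fit with the letter as a replicate block called 77 genes, with 1 residual degree of freedom and no receptor gene among them. Deviations of same-lettered libraries correlated at -0.0777 for A and 0.0521 for C, and those of differently lettered libraries at -0.118 to 0.0773. With so few pairs this cannot tell whether the letters mark anything shared. The block gave a log2 change of -0.047 for Gfra2.

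Signs near 0 turned. The sex log2 change of Ret was -0.066 with library totals (an alternative chosen after seeing the data), -0.20 without both male A and male C, and -0.086 to 0.17 when single libraries were left out. For Gfra2 it was -0.080 with library totals and -0.075 to 0.18 when single libraries were left out. When single libraries were left out it was 0.057 to 0.45 for Gfra1, -0.35 to -0.00078 for Gfra3, -0.32 to -0.002 for Gfra4, -0.25 to -0.041 for Ncam1 and -0.43 to -0.021 for Sdc3. Without both male A and male C it was 0.11 for Gfra3, 0.12 for Ncam1 and 0.050 for Sdc3. With record set as a term, and in record set 1 only, it was 0.070 in both for Gfra4, and 0.036 and 0.035 for Sdc3. The record set log2 change was -0.37 to 0.42 for Gfra1 when single libraries were left out, and for Gfra3 -0.13 without a sex term and -0.078 to 0.18 when single libraries were left out.

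Without length scaling the ratio of Ret was 5.42 to Gfra1, 2.32 to Gfra2, 0.429 to Gfra3, 38.6 to Gfra4 and 0.579 to Ncam1. With the longest coding transcript it was 1.47 to Gfra2, 0.157 to Gfra3 and 0.697 to Ncam1, and Ret exceeded Gfra2 by 0.52 on the log2 scale, past the threshold. For Ncam1 this divides counts of the shorter deposited model by a longer transcript length. With 5 libraries the exact order test cannot go below 0.0625; the log2 differences then ran from 1.37 to 1.45 for Gfra3 over Ncam1, 1.63 to 1.82 for Ncam1 over Ret, -0.0074 to 0.20 for Ret over Gfra2, 1.24 to 1.38 for Gfra2 over Sdc3 and 1.34 to 1.58 for Gfra1 over Gfra4.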
